A study of Mus musculus with 41 samples.

Results

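Cells were taken as candidate endothelial cells of the mouse small intestine when the UMIs (unique molecular identifiers, each standing for 1 captured RNA molecule) of Cdh5, Egfl7, Kdr, Plvap and Esam summed to at least 3. The same cells had at most 2 UMIs of Col1a1, Col1a2, Col3a1 and Dcn together, and none of Cd3d, Cd3e, Trac or Cd79a. This gate held 449 of 58067 cells, 397 from Peyer's patches and 52 from lamina propria, in 20 of 27 libraries. Of 517 cells with at least 3 UMIs on the 5 genes, 68 were left out: 25 had over 2 fibroblast UMIs, 20 had T cell UMIs and 30 had Cd79a, and some failed more than 1 term. The name endothelial held for 216 of the 449 cells (48.1%). Another 226 (50.3%) fell into clusters led by leukocyte genes and 7 (1.56%) were mural-like, so each comparison is given for the whole gate and, where possible, for the 216 endothelial-like cells.

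Droplet-based 3' RNA sequencing was done on cells of female BALB/cJ mice aged 10 weeks that had reacted to ovalbumin, labelled food allergy, or were untreated wild-type controls. Peyer's patches, clusters of lymphoid follicles along the gut wall, gave 9 food allergy and 10 control libraries on 5 run dates. On run dates 1 and 2 the titles add a location letter, D, I or J. The food allergy library D of run date 1 had no cell in the matrix, so there I and J stand against control D, I and J. Lamina propria, the connective tissue under the epithelium, gave 3 food allergy and 3 control libraries labelled nonTB, and 1 food allergy and 1 control library labelled IgDLow, on 2 other run dates. The labels define neither nonTB nor IgDLow nor the location letters. They do not say which libraries came from separate animals, so p-values measure the spread between libraries or dates, which may be technical. The series counts 27344 cells of treated and 30723 of wild-type mice, and the matrix held the same numbers. Libraries held 379 to 3891 cells with medians of 1829 to 3975 UMIs per cell.

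Endothelial cells line blood and lymph vessels, are joined by the cadherin encoded by Cdh5, and grow in response to VEGF through Kdr. Intestinal capillaries are fenestrated, and Plvap encodes the diaphragm of these openings. Peyer's patches also have high endothelial venules, whose addressin Madcam1 and sulfated mucins such as Glycam1 let lymphocytes leave the blood, and lymphatics, which carry cells and fluid away and are marked by Lyve1 and specified by Prox1.

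The cells were chosen by the UMI counts of the 5 summed genes, so the levels of these genes are a description. The sum had a median of 4 UMIs over all gated cells, 13 in endothelial-like cells and 3 in the leukocyte-cluster cells. At the edge, 166 gated cells had a sum of exactly 3, of which 142 carried at least 3 UMIs of Siglech, a lectin gene of plasmacytoid dendritic cells, and 114 owed the whole sum to Cdh5. Just outside, 436 cells with a sum of 2 passed the other terms, 360 of them with at least 3 Siglech UMIs and 318 with both UMIs from Cdh5. None of the 119 cells with a sum of 12 or more had 3 Siglech UMIs.

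The leukocyte-cluster cells passed mostly on Cdh5. In 171 of the 226 (75.7%) the sum came from Cdh5 alone, and 211 had at least 3 Siglech UMIs. Cdh5 stood at 518 CPM (UMIs of the gene per 1e6 UMIs of the summed cells) in endothelial-like cells, 362 CPM in leukocyte-cluster cells and 7.66 CPM in all cells outside the gate. Among all 4319 cells of the matrix with at least 3 Siglech UMIs, 1556 (36.0%) had Cdh5 at a median depth of 5705 UMIs, and 15 (0.347%) had Egfl7. Among the 53510 cells outside the gate with fewer Siglech UMIs, 163 (0.305%) had Cdh5 at a median depth of 2914 UMIs, and 229 (0.428%) had Egfl7. Egfl7 was thus at about the same low share in both, while Cdh5 was not. Cells of Peyer's patches with at least 3 Siglech UMIs had, on run date 5, 99.2 CPM of Cdh5 in food allergy and 105 CPM in controls. On run date 4 they had 78.7 and 43.8 CPM, on run date 3 138 and 94.7 CPM, on run date 2 165 and 24.1 CPM, and on run date 1 131 and 78.0 CPM in the same order. Food allergy was thus higher on 4 of 5 dates, with 9 to 29 food allergy cells on run dates 1 to 3. Controls of run dates 2 and 3 had 14 and 18 such cells, with 2 and 13 Cdh5 UMIs. In lamina propria food allergy was lower, with nonTB cells at 100 and 105 CPM on run date 6 in the same order. On run date 7 nonTB cells stood at 71.1 and 95.4 CPM and IgDLow cells at 69.5 and 90.3 CPM. The differences were not tested.

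**Figure D1:**
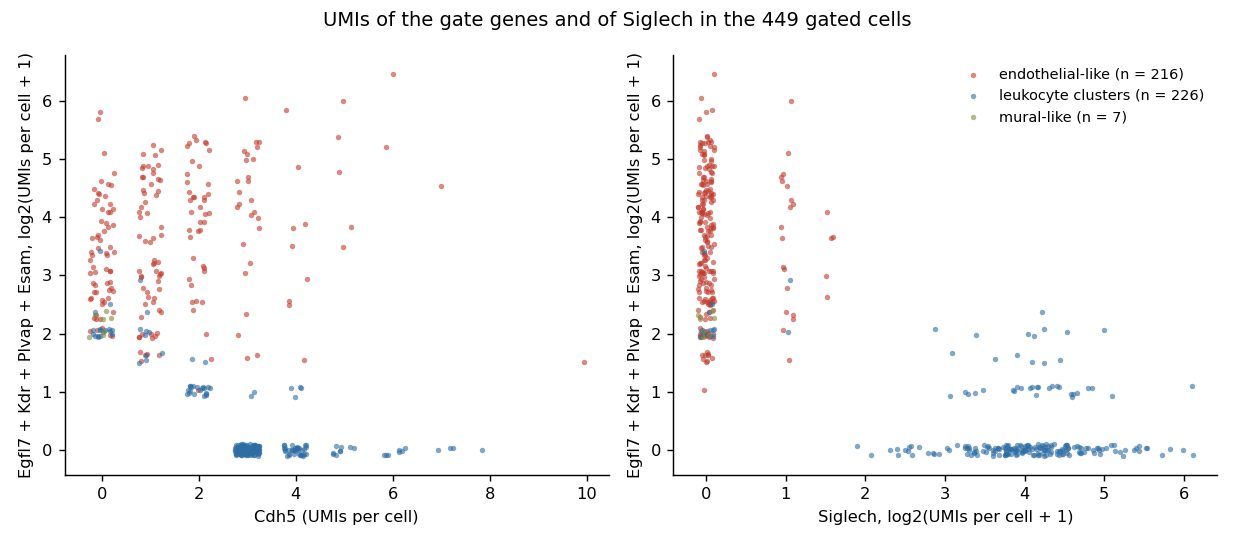
Each point is 1 of the 449 gated cells, jittered. The vertical axes give the log2 of the summed UMIs of Egfl7, Kdr, Plvap and Esam plus 1, and the horizontal axes give Cdh5 UMIs (left) and the log2 of Siglech UMIs plus 1 (right). The 226 leukocyte-cluster cells lie mostly at 0 on the other gate genes and high on Siglech, and the 216 endothelial-like cells at the reverse.

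All 14 endothelial markers reached 100 CPM in endothelial-like cells, and their summed level was 10983 CPM, against 510 CPM in leukocyte-cluster cells and 67.7 CPM outside the gate. The list holds the 5 gate genes, so the rule fixes part of these sums. Of the markers that the gate did not use, Ramp2 stood at 1320 CPM in endothelial-like cells, 2.65 CPM in leukocyte-cluster cells and 2.06 CPM outside the gate. Pecam1 stood at 902, 61.0 and 44.9 CPM and Emcn at 608, 0 and 0.253 CPM in the same order. Both sets of clusters were formed from these cells, so the levels are a description. The 5 leukocyte markers summed to 211 CPM in endothelial-like cells, 4289 CPM in leukocyte-cluster cells and 4110 CPM outside the gate. Fibroblast markers summed to 280 CPM in endothelial-like cells, of which Mgp gave 277 CPM. Pdgfra was at 0, as were Col1a1, Col1a2 and Col3a1, which the rule caps together with Dcn. Ms4a1, Csf1r and the 4 hemoglobin genes were also at 0 there, as were Cd3d, Cd3e, Trac and Cd79a by the rule. Endothelial-like cells had a median of 2576 UMIs and leukocyte-cluster cells 7182, and the leukocyte-cluster cells were led by Cox6a2, Cybb, Rnase6 and Cd209a. Doublets were not called. Barcodes that also occur in another library were found in 41 gated cells and in 4534 of all cells, and no barcode was shared by 2 gated cells.

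The genes with the largest ratio of gated to other cells were mostly endothelial genes. Sox17, an arterial transcription factor, stood at 101 CPM in gated cells and 0.118 CPM in other cells (855-fold). Fabp4, a fatty acid carrier of capillaries, stood at 1105 and 2.42 CPM (458-fold). The other 13 leading genes were Glycam1, Scgb3a1, Tmem252, Emcn, 8430408G22Rik, Tm4sf1, Cldn5, Ptprb, Plvap, Cav1, Madcam1, Flt1 and Egfl7, at ratios of 223 to 823. These ratios follow in part from the gate, which holds Plvap and Egfl7 itself.

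ETS transcription factors, which bind a GGAA core, are known regulators of endothelial genes. The windows from 250 bases before to 50 after the start of the gate gene Kdr and of the venule genes Madcam1 and Glycam1 are shown to compare how many such cores they hold, from RefSeq on GRCm38.p6, 5′ to 3′ on the gene's strand. Capitals mark GGAA on either strand (GGAA or TTCC, overlaps allowed). Kdr lies on the minus strand at chr5:75978406-75978705, Madcam1 on the plus strand at chr10:79664309-79664608 and Glycam1 on the minus strand at chr15:103565032-103565331.
Kdr: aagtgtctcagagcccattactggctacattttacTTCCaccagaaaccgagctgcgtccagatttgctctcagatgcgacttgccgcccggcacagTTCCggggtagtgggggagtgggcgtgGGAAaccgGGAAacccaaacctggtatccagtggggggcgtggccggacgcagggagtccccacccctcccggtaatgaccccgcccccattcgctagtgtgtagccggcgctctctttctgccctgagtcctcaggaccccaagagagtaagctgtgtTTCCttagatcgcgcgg
Madcam1: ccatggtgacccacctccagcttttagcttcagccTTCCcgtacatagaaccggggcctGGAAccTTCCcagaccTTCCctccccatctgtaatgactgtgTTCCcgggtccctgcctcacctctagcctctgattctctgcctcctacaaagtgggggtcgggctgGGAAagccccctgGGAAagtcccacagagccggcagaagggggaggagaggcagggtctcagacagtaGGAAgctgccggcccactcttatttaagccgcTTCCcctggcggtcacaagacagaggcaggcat
Glycam1: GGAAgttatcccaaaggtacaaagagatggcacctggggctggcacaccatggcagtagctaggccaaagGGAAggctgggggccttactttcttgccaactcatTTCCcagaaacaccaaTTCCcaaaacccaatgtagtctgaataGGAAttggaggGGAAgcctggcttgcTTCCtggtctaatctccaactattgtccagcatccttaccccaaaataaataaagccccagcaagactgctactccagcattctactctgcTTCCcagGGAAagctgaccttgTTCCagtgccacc
Kdr held 5 cores, Madcam1 9 and Glycam1 10. Of 32851 such windows, 96.0% held at least 1 core and the median was 3, while 28.6% held at least 5, 1.59% at least 9 and 0.636% at least 10. A match describes the letters in the window and does not show that a factor binds there.

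Within the 216 endothelial-like cells, 4 blood and lymphatic states could be named from markers: 99 cells were capillary-like, 48 arterial-like, 15 venous-like and 13 lymphatic-like, and 41 stayed unnamed. All 216 cells stayed in endothelial clusters, and all 13 lymphatic-like cells stayed together, under 6 other clustering settings. In 3 of the 6, another 10 gated cells joined the endothelial clusters, and with Pearson residuals the lymphatic cluster held 14 cells. The clusters were made from these genes, so state levels carry no test. The Peyer's patches gave 212 of these cells and the lamina propria 4, of which 3 were capillary-like and 1 venous-like.

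Capillary-like cells made up the largest state. They carried Car4 at 398 CPM, against 16.7 CPM in the other endothelial-like cells (23.8-fold), a carbonic anhydrase of capillary endothelium. Esm1, induced by VEGF, stood at 605 and 47.3 CPM, and Gpihbp1, which anchors lipoprotein lipase to capillaries, at 502 and 134 CPM. Rgcc, Cd300lg, Scgb3a1, Chchd10, Ncoa7, Sox4 and Col4a1, the last a basement membrane collagen, completed their 10 leading genes. Fabp4 at 6398 CPM and Plvap at 4216 CPM were also at their highest in this state.

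Arterial-like cells were led by Mgp, an inhibitor of calcification, at 1100 CPM against 62.0 CPM in the other endothelial-like cells (17.8-fold). Next came Stmn2 at 649 and 57.8 CPM, and Fbln5, an elastic fibre protein, at 1124 and 163 CPM. Sema3g, Dkk2, Azin1, Slc6a6, Vegfc, Avpi1 and Glul followed at ratios of 5.06 to 8.47. Known arterial genes were at their highest here, with the gap junction gene Gja4 at 459 CPM, the Notch target Hey1 at 214 CPM and the flow-responsive factor Klf2 at 7454 CPM. Mgp was found in 13 of the 48 cells, fewer than the 34 with Fbln5.

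Venous-like cells carried the lymphocyte-homing genes. Madcam1 stood at 9742 CPM, against 7.73 CPM in the other endothelial-like cells (1260-fold), and was present in 14 of 15 cells. Ackr1, a chemokine carrier of venules, was also present in 14 of 15 cells, at 1084 CPM, and had no UMI in the other endothelial-like cells. Selp, encoding P-selectin, stood at 622 and 3.87 CPM, and Lrg1 at 5933 and 61.9 CPM. Cytl1, Ch25h, Cxcl9, Ubd and Tgfbi were the remaining leaders beside Glycam1.

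The Glycam1 level of 34889 CPM in this state came from 4 of its 15 cells, with 1823, 844, 540 and 45 UMIs. The same 4 cells held all Ccl21a of the state (62 to 746 UMIs per cell), a T cell chemokine, and all its Enpp2 (7 to 36 UMIs), which makes lysophosphatidic acid. They held 30 to 124 UMIs of Ubd, which had at most 3 UMIs in the other 11 cells. Madcam1 was between 68 and 380 UMIs in these 4 cells and between 0 and 50 in the other 11. Selp ran the other way, with 0 to 1 UMI in the 4 cells and 1 to 12 in the 11. The 4 cells were deeper, at 6638 to 20927 UMIs against 598 to 7525. They came from food allergy replicate 10 and control replicates 2, 9 and 10, so the pattern was not that of a lone library. Chst4, which sulfates the ligands of L-selectin, had no UMI in any endothelial-like cell. Reads of Ccl21a may be shared with near-identical copies of the gene, and it stood at 201 CPM in cells outside the gate.

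Lymphatic-like cells all carried Lyve1 (1 to 10 UMIs per cell, 1856 CPM) and Mmrn1 (1 to 11 UMIs, 1697 CPM), and no other endothelial-like cell had a UMI of either. The ratios were at least 354-fold and 324-fold against a floor of 3 counts over the other endothelial-like cells. Prox1 was found in 7 of the 13 cells at 239 CPM, and Flt4, the receptor of the lymphatic growth factor VEGF-C, in 7 of 13 at 689 CPM. Tnc, Cyp4b1, Gm11837, Cp, Il33, Ntn1 and Stab2 completed the leading genes, and Stab2, a hyaluronan scavenger, stood at 557 CPM with no UMI in the other endothelial-like cells. Ccl21a was present in 10 of 13 cells at 4826 CPM, Cldn5 stood at 2492 CPM and Plvap at 318 CPM in 6 cells. Madcam1 and Glycam1 had no UMI. Of the 13 cells, 6 came from food allergy replicates 2, 7, 9 and 10 and 7 from control replicates 8 and 10.

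The unnamed cells were nearly all from 1 library. Control replicate 8 of run date 4 gave 37 of the 41, and only 3 of its 40 endothelial-like cells had a named state. Leading genes among them were AY036118 at 3046 CPM, against 110 CPM in the other endothelial-like cells, Gm26917 at 4398 and 269 CPM and Gm42418 at 3477 and 419 CPM. AY036118, Gm26917 and Gm42418 share sequence with ribosomal RNA. Siglech stood at 225 CPM in these cells and 11.8 CPM in the other endothelial-like cells. Blood endothelial genes were present, with Plvap at 2899 CPM and Sox17 at 588 CPM, and Lyve1 had no UMI.

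**Figure D2:**
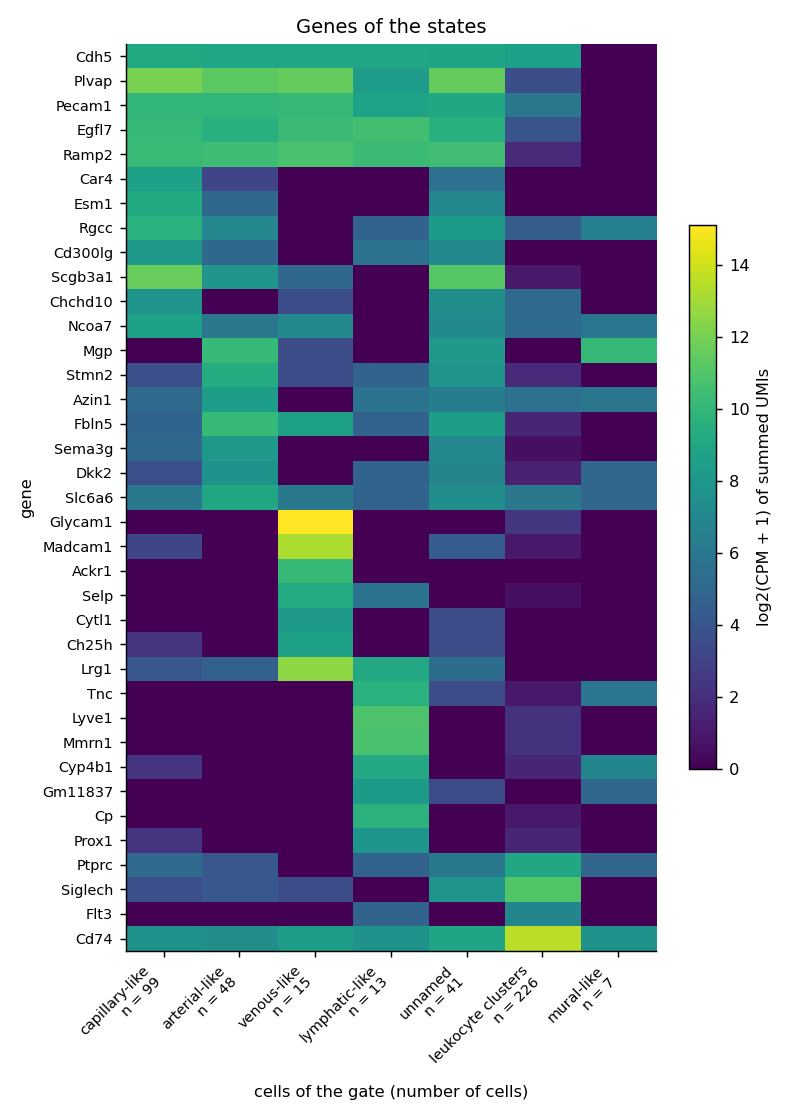
Rows are marker and leading genes and columns are the states of the gated cells with their cell numbers. Colour gives the log2 of CPM plus 1 of the summed UMIs. Among the endothelial columns, Car4 to Ncoa7 are highest in capillary-like and Mgp to Slc6a6 in arterial-like cells. Glycam1 to Lrg1 are highest in venous-like and Tnc to Prox1 in lymphatic-like cells. Mgp is as high in mural-like cells (1118 CPM) as in arterial-like cells (1100 CPM). Scgb3a1 and Chchd10 are nearly as high in unnamed cells (2302 and 176 CPM) as in capillary-like cells (3121 and 219 CPM). Siglech, Flt3 and Cd74 stand out in the leukocyte clusters.

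**Figure D3:**
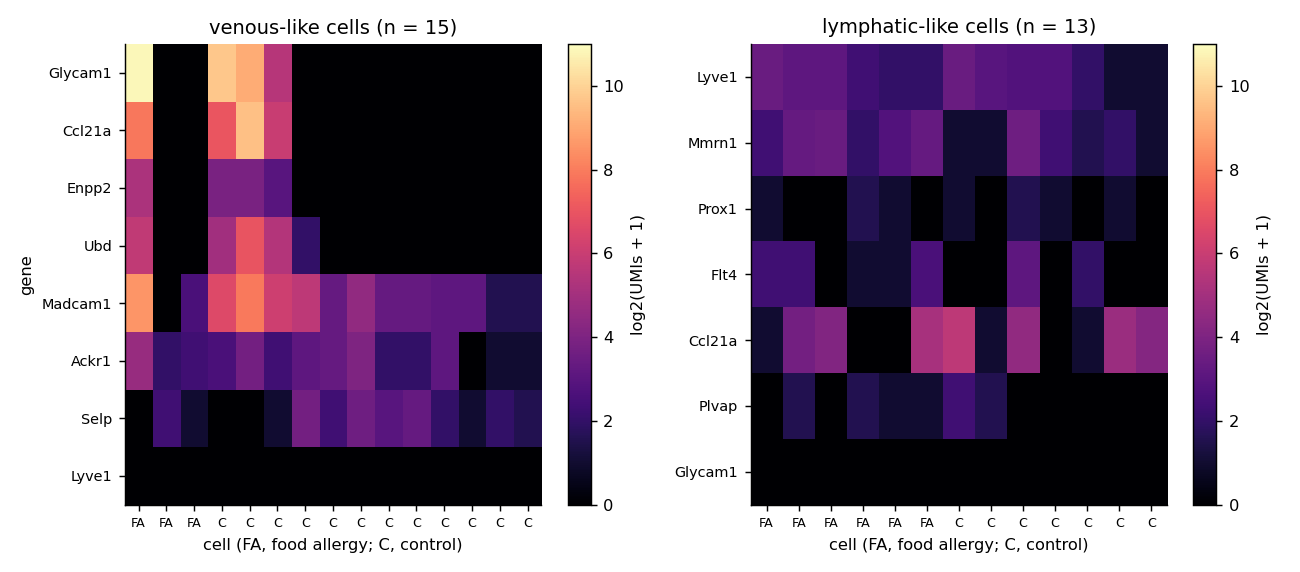
Columns are the 15 venous-like cells (left) and 13 lymphatic-like cells (right), food allergy (FA) before control (C), and colour gives the log2 of UMIs plus 1. Glycam1, Ccl21a and Enpp2 mark the same 4 venous-like cells, and Lyve1 and Mmrn1 are present in every lymphatic-like cell.

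Growth and vessel-shaping receptors were widely present. All 21 genes of the VEGF, Notch and angiopoietin list had a UMI in endothelial-like cells, where they summed to 4073 CPM, against 175 CPM in leukocyte-cluster cells. The highest were the VEGF receptor Flt1 (680 CPM), its co-receptor Nrp1 (655 CPM), and Eng (536 CPM) and Acvrl1 (385 CPM), which bind ligands of the BMP family. Flt1 and Nrp1 had no UMI in lymphatic-like cells, where Kdr stood at 424 CPM. Among transcription factors the highest were Klf2 (4557 CPM), Klf4 (1456 CPM), Tcf4 (570 CPM) and Sox17 (414 CPM), and Tcf4 was as high in leukocyte-cluster cells, at 775 CPM.

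Adhesion and chemokine genes stood at different levels in the states. The homing list summed to 11300 CPM in endothelial-like cells and 173 CPM in leukocyte-cluster cells, led by Glycam1 (5326 CPM), Madcam1 (1494 CPM), Pecam1 (902 CPM) and Esam (886 CPM). Of the venule enzymes, Enpp2 (311 CPM), the sialyltransferase St3gal6 (254 CPM), the sphingosine-1-phosphate exporter Spns2 (83.5 CPM) and Chst2 (42.6 CPM) were highest. Ccl21a (2229 CPM), Cxcl12 (640 CPM), Cxcl1 (380 CPM) and Cxcl10 (244 CPM) led the chemokines. Cxcl12 and Cxcl10 were highest in different states. Cxcl12 stood at 1028 CPM in unnamed, 863 CPM in arterial-like and 693 CPM in capillary-like cells and had no UMI in lymphatic-like cells. Cxcl10 stood at 1105 CPM in venous-like and 583 CPM in lymphatic-like cells.

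Of the receptor system for the neuropeptide CGRP and for adrenomedullin, which share the receptor encoded by Calcrl, endothelial-like cells carried the adrenomedullin form. Ramp2, whose product makes Calcrl an adrenomedullin receptor, stood at 1320 CPM in endothelial-like cells and 2.65 CPM in leukocyte-cluster cells. Calcrl stood at 133 and 6.37 CPM, the ligand gene Adm at 65.5 and 1.59 CPM and Ramp3 at 45.9 and 19.6 CPM. Ramp1, whose product makes Calcrl a CGRP receptor, was at 4.91 CPM in endothelial-like cells, 381 CPM in leukocyte-cluster cells and 123 CPM outside the gate. Every named endothelial state had over 1000 CPM of Ramp2, the lowest being 1127 CPM in capillary-like cells.

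Receptors of type 2 cytokines and alarmins were low. Il2rg (280 CPM), Crlf2 (70.4 CPM), Il3ra (52.4 CPM) and Il4ra (47.5 CPM) were highest, and Il1rl1, the receptor of IL-33, had no UMI in endothelial-like cells. Of the vasomotor list, Ace (369 CPM), Ece1 (247 CPM), the thrombin receptor F2r (211 CPM) and S1pr1 (183 CPM) led. Hrh1 and Hrh2, the histamine receptors on the list, had no UMI. F2r stood at 1299 CPM in lymphatic-like cells.

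Barrier and matrix genes were among the most abundant. Fabp4 (4460 CPM), Plvap (3197 CPM), Cav1 of caveolae (798 CPM) and Ehd4 (645 CPM) led the transport list, which summed to 11601 CPM against 213 CPM in leukocyte-cluster cells. The junction list, as drawn up here, was led by Emcn (608 CPM), the tight junction gene Cldn5 (529 CPM), Cdh5 (518 CPM) and Ctnnb1 (257 CPM). Sparc (1898 CPM), Sparcl1 (711 CPM), Col4a1 (596 CPM) and the protease inhibitor Timp3 (441 CPM) led the matrix list. The list drawn up for coagulation and fibrinolysis was led by Mmrn2 (441 CPM), Anxa2 (360 CPM), Plat (223 CPM) and Thbd (193 CPM).

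Cells of the gate were less frequent in food allergy Peyer's patches on 3 of 5 run dates, but the difference was not beyond its spread. They made up 0.690 ± 0.937% of food allergy cells and 1.18 ± 1.52% of control cells (SD over 5 run dates), a difference of -0.491 percentage points (exact permutation test within run dates, two-sided, p = 0.250). Run date 2 had no gated cell in either condition, which leaves a smallest possible p of 0.125. For endothelial-like cells alone the means were 0.259% and 0.739%, a difference of -0.479 points (p = 0.250, same exact test). In shares of this kind, fewer endothelial cells and more cells of other kinds cannot be told apart, and the cells recovered depend on the dissociation and sort of each date.

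On single dates the endothelial-like counts were small and uneven. On run date 5 they were 47 of 5380 food allergy cells (0.874%, exact 95% interval 0.643 to 1.16) and 86 of 4824 control cells (1.78%, 1.43 to 2.20). On run date 4 they were 5 of 2046 (0.244%, 0.0794 to 0.569) and 40 of 2525 (1.58%, 1.13 to 2.15). Run date 1 had 1 of 1987 and 28 of 8580 cells, with location letter D among the control libraries only. Run date 3 ran the other way, with 5 of 3891 and 0 of 1125, a count of 0 that allows up to 0.267%. These intervals cover counting error only. The leukocyte-cluster cells were 69 food allergy (1.28%) and 80 control cells (1.66%) on run date 5, 14 (0.684%) and 9 (0.356%) on run date 4, and 0 and 1 (0.0889%) on run date 3. Over the dates they differed by -0.0266 points (exact permutation p = 0.750), and this difference was not tested against that of the endothelial-like cells.

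**Figure D4:**
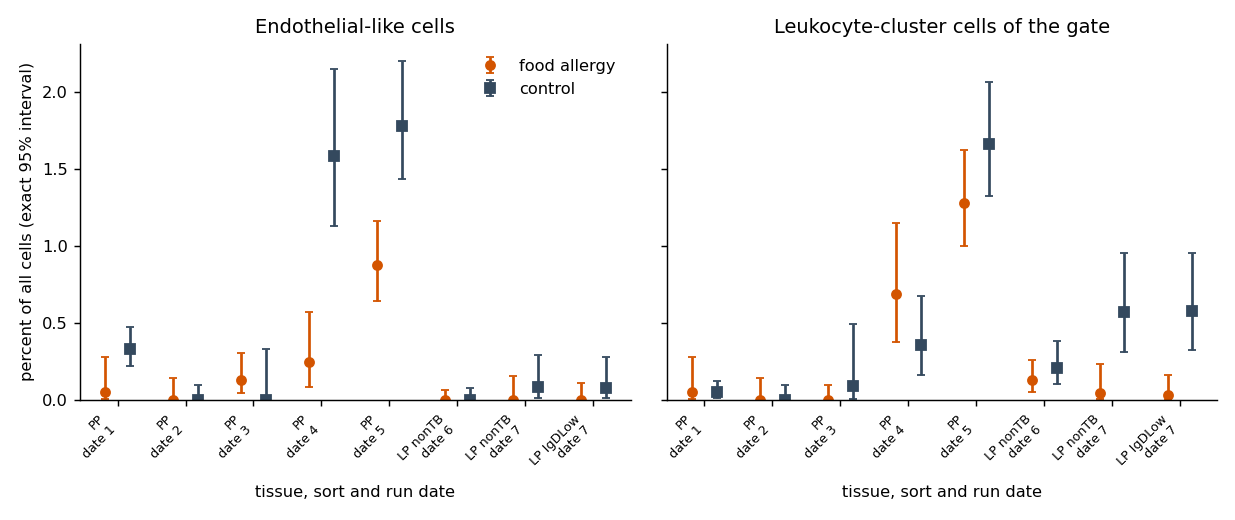
Percent of all cells (vertical axis, with exact 95% intervals) that were endothelial-like (left) or gated leukocyte-cluster cells (right), by tissue, sort and run date, food allergy as circles and control as squares. Endothelial-like cells lie lower in food allergy on run dates 1, 4 and 5 of the Peyer's patches (PP), and lamina propria (LP) libraries hold almost none.

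The lamina propria nonTB libraries held 8 gated cells of 7996 in food allergy and 26 of 7267 in controls. The shares were 0.0971 ± 0.0510% and 0.354 ± 0.257% (SD, n = 3 libraries each), a difference of -0.257 points (exact permutation within run date, two-sided, p = 0.167, the smallest this design allows). None of the 8 food allergy cells and 2 of the 26 control cells were endothelial-like, so the difference lay in the leukocyte-cluster cells, at -0.230 points. The IgDLow libraries, with no replicate, had 1 gated cell of 3409 in food allergy and 17 of 2598 in the control, of which 0 and 2 were endothelial-like. No gene test was possible in lamina propria, where no food allergy library reached 10 gated cells. Summed over the nonTB cells, Cdh5 had 26 UMIs in food allergy and 74 in controls, or 871 CPM (exact Poisson 95% interval 569 to 1277) and 546 CPM (429 to 685), which the gate's rule acted on. Siglech stood at 2246 CPM (1740 to 2852) and 1874 CPM (1651 to 2119), and Egfl7 had 0 UMIs in food allergy and 11 in controls.

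Lymphatic-like cells were 4 of 139 gated cells in food allergy and 7 of 218 in controls on run dates 4 and 5 of the Peyer's patches. The mean of the dates differed by -1.10 percentage points (exact permutation p = 0.5, the smallest that 2 dates allow). Taken over endothelial-like cells of run date 5 alone, they were 4 of 47 (8.51%) and 6 of 86 (6.98%), the other direction. The 6 control cells all came from replicate 10. At these counts no difference was detectable.

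States of run date 5 are best read as counts. The 47 food allergy cells were 30 capillary-like, 11 arterial-like, 2 venous-like and 4 lymphatic-like, and the 86 control cells were 42, 28, 8 and 6 of these states and 2 unnamed. Food allergy replicate 9 gave 14, 3, 1 and 1 cells of the 4 states and replicate 10 gave 16, 8, 1 and 3. Control replicate 9 gave 22, 16, 4 and 0 and replicate 10 gave 20, 12, 4 and 6.

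No gene passed the test between food allergy and control over all gated cells of the Peyer's patches. With 4 sums of run dates 4 and 5, edgeR's quasi-likelihood test called 0 of 6010 genes at an adjusted p under 0.05 (0% of genes tested), 322 genes had an unadjusted p under 0.05, and DESeq2 called 0, with 77 at that level. The sums were mixtures in different proportions. Endothelial-like cells were 5 of 21 gated cells in food allergy and 40 of 49 in controls on run date 4, and 47 of 118 and 86 of 169 on run date 5. Beside this, all 15 tested genes of the VEGF, Notch and angiopoietin list had negative log2 fold changes, with a median of -1.16, against -0.00681 over all genes. In the endothelial-like cells of run date 5 that list had 6 of 13 positive and a median of -0.0416.

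Among endothelial-like cells of run date 5, 1 gene rose in food allergy. This comparison of 2 food allergy and 2 control libraries of at least 10 such cells was chosen after seeing the data. In food allergy replicate 10, 1 venous-like cell held 20927 of the 96422 summed UMIs. In control replicate 10, 1 such cell held 15949 of 151808. The quasi-likelihood test of edgeR called 1 of 1918 genes (0.0521%), with 112 at an unadjusted p under 0.05. The gene, 8430408G22Rik (Depp1 in RefSeq, a target of FOXO factors in human cells), stood at 1693 and 1421 CPM in food allergy replicates 9 and 10, against 425 and 270 CPM in control replicates 9 and 10. Both food allergy libraries were higher than both controls, with a log2 fold change of 2.21 (SE 0.285, adjusted p = 0.0394). The controls of other dates stood at 876 CPM in replicate 2 and 370 CPM in replicate 8, also below both food allergy libraries. Over date sums that add run date 4, with 5 food allergy cells there, the log2 fold change was 1.10 and the adjusted p 1.000.

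Capillary- and arterial-like cells carried this gene. Pooled over all Peyer's patch dates it stood at 1797 CPM in food allergy and 397 CPM in control capillary-like cells (146 and 65 UMIs), and at 2112 and 848 CPM in arterial-like cells (75 and 77 UMIs). Lymphatic-like cells had no UMI and venous-like cells 1 UMI in each condition. Leukocyte-cluster cells had none, and cells outside the gate 0.316 CPM.

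Adhesion and inflammatory genes had large differences that missed the threshold. Icam1, the leukocyte adhesion molecule, had 46.4 and 51.9 CPM in food allergy replicates 9 and 10, against 315 and 395 CPM in control replicates 9 and 10, a log2 fold change of -2.75 (SE 0.431, edgeR adjusted p = 0.0945). Leaving out any of the 4 libraries brought its adjusted p to between 1.6e-05 and 0.0107, in fits that assume the lone library left to vary like the others. Control replicates 2 and 8 stood at 390 and 166 CPM, above both food allergy libraries. Most Icam1 lay in venous-like cells. Pooled over all Peyer's patch dates these had 82.5 CPM in food allergy and 1221 CPM in controls (2 and 76 UMIs). The pools held 3 and 11 cells, and 1 food allergy cell gave 20927 of the 24235 UMIs there. On run date 5 the food allergy libraries held 2 such cells against 8.

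Cldn5 had 209 and 207 CPM in food allergy, against 583 and 843 CPM in controls (log2 fold change -1.73, SE 0.321, edgeR adjusted p = 0.229). Control replicate 8 at 253 CPM was close to the food allergy libraries. Cxcl10, an interferon-induced chemokine, had 0 and 104 CPM in food allergy, against 394 and 468 CPM in controls (-2.57, adjusted p = 0.282), but 0 and 127 CPM in control replicates 2 and 8. Without venous-like cells its log2 fold change was 0.08. Over all dates of Peyer's patches, Cxcl10 had 0 UMIs in the 3 venous-like cells of food allergy and 103 in the 11 of controls. Of those 3 cells, 1 held 20927 of their 24235 UMIs. In capillary-like cells Cxcl10 had 1 UMI (12.3 CPM) in food allergy and 17 (104 CPM) in controls. In lymphatic-like cells it had 14 (1056 CPM) and 8 (327 CPM) in the same order.

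Irf1, an interferon-induced transcription factor, had 719 and 373 CPM in food allergy, against 1386 and 1245 CPM in controls, a log2 fold change of -1.30 (SE 0.311, edgeR adjusted p = 0.370). In capillary- and arterial-like cells alone the value was -1.47 with an adjusted p of 0.00955, but control replicate 2 at 487 CPM lay within the food allergy range. Timp3 had 742 and 767 CPM in food allergy, against 181 and 349 CPM in controls (1.54, adjusted p = 0.282), and its adjusted p was 0.0338 in capillary- and arterial-like cells. Aqp1, a water channel, had 765 and 767 CPM in food allergy, against 394 and 408 CPM in controls (0.980, adjusted p = 0.419). Aqp1 and Timp3 are also high in lymphatic-like cells, at 1326 and 1697 CPM.

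Other abundant genes differed less. Igfbp7, a matrix protein, had 12526 and 12342 CPM in food allergy and 14267 and 11831 CPM in controls, and Fabp4 had 4430 and 4688 CPM and 4640 and 3564 CPM. Both overlapped between the conditions. Ramp2 had 835 and 1410 CPM in food allergy and 1442 and 1377 CPM in controls (log2 fold change -0.245, SE 0.269, adjusted p = 0.935), and Calcrl 139 and 114 CPM and 110 and 145 CPM (-0.0214, SE 0.396). Neither receptor gene passed the test.

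The 5 gate genes, which were part of the choice of cells, are given for the same libraries as a description. Egfl7, a secreted vascular factor, had 1670 and 1348 CPM in food allergy. It had 662 and 968 CPM in control replicates 9 and 10 and 950 and 731 CPM in control replicates 2 and 8. Single deep venous-like cells gave 46 of its UMIs in food allergy replicate 10 and 25 in control replicate 10. Plvap was lower in food allergy, with 2412 and 2541 CPM, against 3576, 2918, 4869 and 2759 CPM in control replicates 9, 10, 2 and 8. Esam had 626 and 716 CPM in food allergy and 705 to 1315 CPM in the 4 controls, and Kdr had 557 and 404 CPM and 315 to 584 CPM. Cdh5 was the steadiest, at 580 and 539 CPM in food allergy and 438 to 567 CPM in controls. The marker Pecam1, which the gate did not use, had 1067 and 799 CPM in food allergy and 478 to 1363 CPM in controls, so the conditions overlapped.

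**Figure D5:**
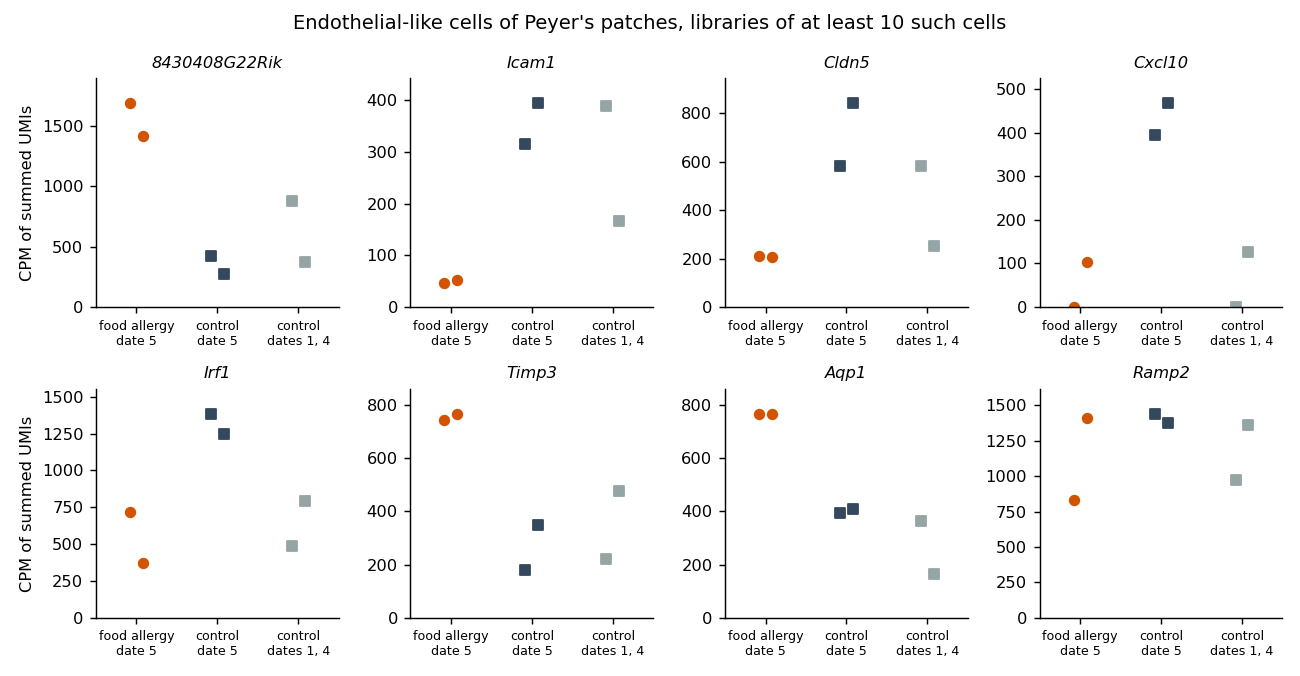
CPM (vertical axes, from 0) of 8 genes in endothelial-like cells of each Peyer's patch library with at least 10 such cells: food allergy of run date 5, control of run date 5, and control of run dates 1 and 4. The 2 food allergy points lie above all 4 control points for 8430408G22Rik, Timp3 and Aqp1 and below them for Icam1 and Cldn5.

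Of the lists, only counts and medians are given for run date 5, beside the median of 0.00755 and 50.8% positive over all 1918 genes, and no listed gene passed the test in either direction. The interferon list had 1 of 11 positive (median -0.381) and antigen presentation 2 of 10 (median -0.110). The basement membrane list had 9 of 12 positive (median 0.187), endothelial transcription factors 8 of 11 (0.204) and homing 6 of 13 (-0.0424). Immediate early genes, which rise with dissociation, had 6 of 18 positive (median -0.242), and their part in the other differences was not tested. The RNA quality list had 8 of 10 positive (median 0.161). The junction list had 1 of 5 positive (median -0.478) and the lymphatic list 4 of 5 (median 0.924).

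The leukocyte-cluster cells were tested alone over 6 libraries of at least 5 such cells, a comparison that was not planned. Control replicate 8 gave only 9 of these cells. In this fit edgeR called 3 of 3883 genes (0.0773%), all higher in food allergy. These were Mcpt1, a mast cell protease (log2 fold change 4.66, SE 0.754, adjusted p = 0.0305), Gm26825 (2.05, SE 0.330, adjusted p = 0.0305) and Iglc2, an immunoglobulin gene outside the naming rule (1.17, SE 0.186, adjusted p = 0.0305). Mcpt1 stood at 32.4 CPM in these cells and 844 CPM outside the gate, and the part of RNA from other cells was not tested.

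Between the tissues, 6 of 3125 genes were called (0.192%) in control lamina propria against control Peyer's patches, by edgeR's quasi-likelihood test on 1 lamina propria library of 16 gated cells and 3 Peyer's patch date sums. The spread came from the Peyer's patch dates alone, and the lone lamina propria library was assumed to vary like them. Higher in lamina propria were Igha, outside the naming rule (log2 fold change 4.31, SE 0.546, adjusted p = 0.0378), Jchain (4.14, SE 0.581, adjusted p = 0.0412), Ccl5 (3.82, SE 0.488, adjusted p = 0.0378) and Tmsb4x (0.900, SE 0.133, adjusted p = 0.0414). Lower were the immediate early genes Fos (-3.12, SE 0.416, adjusted p = 0.0378) and Jun (-4.78, SE 0.690, adjusted p = 0.0412). The lamina propria library held 14 leukocyte-cluster cells of 16, and no run date held both tissues, so tissue, run date, sort and cell mixture cannot be told apart. A fit of leukocyte-cluster cells alone used 2 lamina propria and 2 Peyer's patch sums of at least 5 cells, so both the cells and the sums differed, and it tested 1295 genes, without Ccl5. There Igha was at 4.08, Jchain at 4.02, Fos at -2.40 and Jun at -2.90, each with an adjusted p under the threshold, and Tmsb4x at 0.223 (adjusted p = 1.000). Plasma cell genes such as Igha and Jchain summed to 137774 CPM outside the gate, against 981 CPM in endothelial-like cells, and the part of free RNA was not tested.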

How the data were processed

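Single-cell libraries were made with 10x 3' chemistry, per the labels. The deposited matrix holds raw UMI counts of 19221 genes in 58067 cells, and the submitters' processing notes name Cell Ranger, bcl2fastq, Bowtie2, RSEM and the genome build mm10, with no versions. The 3' counts do not grow with transcript length, so CPM of summed UMIs (computed here) were compared between genes. Bulk samples were not used. A Peyer's patch food allergy library with no cell in the matrix was not analysed here.

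Gated cells were log-normalised to 10000 UMIs per cell. From 1500 variable genes, 20 principal components and 12 neighbours, they were clustered by Leiden (resolution 1.0, leidenalg 0.10.2, Python 3.11.15). A cluster was named from at least 3 listed markers raised at least 2-fold, and stayed unnamed otherwise. No doublet caller was run.

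Shares were compared by exact permutation within run dates (scipy 1.17.1). Genes were tested on sums of at least 10 cells with edgeR 4.0.16 (quasi-likelihood, TMM, filterByExpr, Benjamini-Hochberg over all genes tested, R 4.3.3), and with DESeq2 1.42.0 as an alternative. Fits of leukocyte-cluster cells alone took sums of at least 5 cells. The fits were tested on simulated data: at a dispersion of 0.1, 35.4% of 4-fold and 92.9% of 8-fold changes were recovered for the gated cells of Peyer's patches, 68.3% and 84.6% for endothelial-like cells of run date 5, and 44.4% and 80.4% between tissues. Of 2-fold changes 6.38%, 2.44% and 4.65% were recovered in these fits, with 3, 7 and 7 false calls. The simulated sums of a fit shared the same mean profile, and the dispersion was set, not estimated from the data. The real sums of gated cells mixed cell types in different proportions, so these rates do not carry over to them. Alternatives changed the gate, filter, scaling, unit and the libraries or dates kept.

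The members, gene lists and tests were chosen with earlier results of these data known. Genes were named when listed (the 4 highest by CPM and any called), when among the 10 smallest adjusted p per direction without immunoglobulin, T cell receptor, ribosomal or mitochondrial genes, when among the 15 largest ratios to other cells at 100 CPM or more, or among the 10 largest ratios of a state at 200 CPM or more. Further genes of run date 5 and marker genes were named after their values were seen.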

Additional observations from a re-analysis of the deposited data

Results flagged for a closer look

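Among 32 groups of 4 to 10 values examined, 4 held a value far from the others, where chance gives about 1 in 20 groups. In endothelial-like cells of the 4 control Peyer's patch libraries, Kdr was high in replicate 2 at 584 CPM, against a group median of 340 CPM. In the same library Ramp2 was low at 974 CPM, against a median of 1371 CPM. Replicate 2 held 19 such cells, the fewest of the 4 control libraries. The percent of endothelial-like cells among food allergy Peyer's patch cells was high on run date 5, at 0.874%, against a median of 0.129% over the 5 dates. The percent of gated leukocyte-cluster cells among control Peyer's patch cells was likewise high on run date 5, at 1.66%, against a median of 0.0889%. Cells of the gate were thus unevenly spread over run dates, and what differed between the dates was not tested.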

How the results depend on the processing

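The share difference in Peyer's patches stayed negative under every alternative run, at -0.287 to -0.624 points without single dates. With libraries as the unit it was -0.498 (exact permutation p = 0.0208), and with a replicate block pairing libraries by date and label -0.471 (p = 0.0625). In lamina propria it was -0.110 to -0.347 without single libraries, -0.257 with the block (p = 0.250), -0.0286 with at least 5 gate UMIs and -0.0270 without cells holding leukocyte UMIs (exact permutation p = 1.00 each). Libraries of equal date and equal letter or number formed 9 pairs, of which 4 had deviations correlated over 0.1 (correlations -0.115 to 0.492). Letters I and J of run date 2 were at 0.281 and 0.492. Pairs by number mirror each other within a date, so their values are equal (0.00545 on run date 6 and 0.138 on run date 5). The check cannot decide whether letters or numbers pair the libraries, and the block is a check only. The lymphatic-like share reversed to 5.91 points without cells holding leukocyte UMIs and to 1.53 over endothelial-like cells, and was -0.160 to -2.04 without single dates. With the state called by at least 3 UMIs of its markers it was -6.71 (exact permutation p = 0.5). That call took 98 gated cells, of which only 13 were in the lymphatic-like cluster. Another 72 lay in other endothelial clusters and 7 in leukocyte clusters, so it mostly counted other endothelial-like cells.

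Called genes in gated Peyer's patch cells stayed at 0, except for 3 in leukocyte-cluster cells. In endothelial-like cells of run date 5 the 1 call became 2 with DESeq2, 9 with no filter, 7 without venous-like cells, 6 in capillary- and arterial-like cells, and 10 to 32 without single libraries. Log2 fold changes reversed for Cxcl10 (0.08 without venous-like cells), Ramp2 (0.0731 without food allergy replicate 9, against -0.719 without replicate 10) and Calcrl (0.0101 with DESeq2, 0.146 and 0.198 without food allergy or control replicate 10, against -0.190 without control replicate 9, 0.178 without venous-like cells). Without a filter the median of all genes was -0.131. Between tissues the 6 calls became 38 to 268 without single Peyer's patch dates, 43 with DESeq2, 3 without TMM, 123 with no filter (median of all genes -1.06) and 21 with sums of at least 5 cells. The cause was not tested. Fits of gated cells with at least 5 gate UMIs, without leukocyte UMIs, of blood-type cells only or, in Peyer's patches, without a run date could not be made, nor between tissues with at least 20 cells, nor any in lamina propria alone. Depth limits the rarer states, where 3 counts equal 84.5 to 226 CPM in food allergy.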

Other observations

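The 2 capillary-like clusters, of 60 and 39 cells, differed in immediate early and interferon genes. The smaller held Fos at 8626 CPM, Irf1 at 1558 CPM, Iigp1 at 1126 CPM and the flow-responsive gene Klf2 at 6078 CPM. The larger held Fos at 3420 CPM, Irf1 at 233 CPM, Iigp1 at 218 CPM and Klf2 at 1887 CPM. Cldn5 stood at 616 CPM in the larger and had no UMI in the smaller, and Adm stood at 218 and 25.4 CPM. The larger was shallower, with a median of 1872 UMIs per cell against 3041 in the smaller. These genes helped form the clusters, so the values are a description.

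The class I antigen presentation genes H2-D1, B2m and H2-K1 stood higher in endothelial-like cells than in both other sets, with H2-D1 at 7059 CPM, against 3028 CPM in leukocyte-cluster cells and 2395 CPM outside the gate. B2m stood at 6560, 3460 and 2603 CPM and H2-K1 at 3797, 1352 and 1121 CPM in the same order, with reads of these paralogous genes not told apart with certainty. The class I genes Psmb8, at 434, 743 and 509 CPM, and Tapbp, at 275, 317 and 187 CPM, stood lower than in leukocyte-cluster cells. The class II chain Cd74 stood at 259, 11996 and 7792 CPM. The interferon-induced gene Ifitm3 stood at 3595 CPM in endothelial-like cells, 118 CPM in leukocyte-cluster cells and 170 CPM outside the gate. Immediate early genes were high, with Fos at 5900 CPM and Junb at 5272 CPM in endothelial-like cells, against 1202 and 1810 CPM outside the gate. Of the cell cycle list, Ccnb1, Ccnb2, Cdk1, Birc5 and Ube2c had no UMI in endothelial-like cells. Its highest there were Tubb5 (540 CPM), Stmn1 (106 CPM), Pcna (60.6 CPM) and Tyms (27.8 CPM). Outside the gate these 4 stood at 422, 161, 67.7 and 19.7 CPM. The niche ligand list was led by Igfbp7 (12413 CPM), Igfbp4 (1012 CPM), Igfbp3 (457 CPM) and Tgfb1 (198 CPM). Of the mast cell genes Kit stood at 99.9 CPM, Mcpt1 at 27.8 CPM, Mcpt2 at 18 CPM and Fcer1a at 4.91 CPM in endothelial-like cells, and Tpsb2 had no UMI.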
